A study of Mus musculus with 42 samples.

Results

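Soleus was compared with quadriceps in the same animal in wild-type adult male mice. All mice with a wild-type adult label and 1 array of each muscle were taken, which gave 5 mice (M2-2, W2-1, W2-3, X2-2 and X2-3) and 10 arrays of the 42 arrays and 22 mice in the series. The mice were 129 SvEvBrd x C57BL/6 heterozygotes, 11 to 12 months old, untreated as far as the labels say. A 6th wild-type adult, W2-2, has a quadriceps array and no soleus array here, and both arrays of mouse M2-1 carry labels that name different muscles. None of these 3 arrays entered the comparison, but W2-2 entered the alternative setting that ignored the pairing of the muscles. The other groups used are 4 wild-type young males of 2 to 3 months, 6 adult C3KO males and 4 young C3KO males. All are of the same strain and have both muscles, and C3KO stands for mice without calpain 3. A further adult C3KO mouse, U2-3, has a quadriceps array and no soleus array here. It entered the setting that ignored the pairing and the ranges given over C3KO arrays. Total RNA was hybridised to 1-colour Affymetrix arrays, 1 array per muscle, and every value below is the deposited log2 expression value of a probe set, so 1 unit is a doubling.

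Soleus is a small postural muscle of the calf rich in slow, fatigue-resistant fibres. Quadriceps is a large thigh muscle made mostly of fast fibres that draw on glycolysis for short bursts of force. Slow and fast fibres build the sarcomere from different isoforms of myosin, troponin and tropomyosin, pump calcium back with different isoforms of the sarcoplasmic reticulum ATPase, and differ in how they burn fat and sugar. In whole muscle, more fibres of a type and more RNA per fibre of that type cannot be told apart.

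Of 12245 genes tested, 4972 (40.6%) passed an adjusted p of 0.05 in limma on the differences within each mouse, 2294 higher (18.7%) and 2678 lower (21.9%) in soleus. For 3304 genes (27.0%) the 5 soleus values and the 5 quadriceps values did not overlap, and 3161 of these were among those that passed. The change was over 2-fold for 843 of the genes that passed (404 higher, 439 lower), over 4-fold for 177 (100 higher, 77 lower) and under 1.5-fold for 2806. The median difference of all genes was 0.00, and the median standard error (SE) of a difference was 0.12. Capn3, the gene removed in C3KO mice, lay between 9.89 and 10.45 in the 11 wild-type adult arrays and between 3.67 and 4.93 in the 21 C3KO arrays, so no library went against its genotype label. The actin 3′ minus 5′ value, a sign of RNA quality, was 0.222 ± 0.157 in soleus and 0.142 ± 0.0449 in quadriceps, and the soleus of X2-2 stood apart with 0.497. Both arrays of M2-2 carry another code in their labels (1-1) than those of the other 4 mice (1-3). Without X2-2 4831 genes passed, and without M2-2 4081. The medians of the arrays lay between 4.35 and 4.47. Values are given below in the order M2-2, W2-1, W2-3, X2-2, X2-3, the ± sign after a group mean is the SD over the 5 mice, and the ± sign after a difference is its SE.

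Most slow genes of the contractile apparatus were higher and most fast genes lower in soleus, and the bases just before their start sites were set side by side. The RefSeq promoter table (GRCm38.p6) had an entry for all 12 slow and for 8 of the 13 fast genes of the sarcomere. The 250 bases before each start were searched on both strands for 4 motifs linked to muscle genes: the MCAT element CATTCC, the E-box CAGCTG, and the MEF2 and CArG motifs. MCAT was found before 3 of the 12 slow genes (25%) and 5 of the 8 fast genes (62.5%), against 14.4% of the 27025 genes in the table. The E-box was found before 5 slow genes (41.7%) and 3 fast genes (37.5%), against 14.7%. MEF2 was found before 2 genes of each list (3.42% of all genes) and CArG before 1 of each (1.62%). A match shows only that these letters stand there. Of the following 4 promoters, those of Myl3 (chr9:110763428-110763677, plus strand) and Tnnc1 (chr14:31208062-31208311, plus strand) belong to genes higher in soleus, and those of Myh4 (chr11:67237562-67237811, plus strand) and Myl1 (chr1:66945057-66945306, minus strand) to genes lower in soleus. They are shown 5′ to 3′ because they hold MCAT in both directions of change, with capitals for every match to 1 of the 4 motifs.
Myl3: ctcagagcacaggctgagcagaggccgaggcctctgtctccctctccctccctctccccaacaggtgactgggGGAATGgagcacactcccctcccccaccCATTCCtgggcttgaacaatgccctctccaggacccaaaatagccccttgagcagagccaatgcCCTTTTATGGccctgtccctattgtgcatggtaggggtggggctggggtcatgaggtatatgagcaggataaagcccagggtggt
Tnnc1: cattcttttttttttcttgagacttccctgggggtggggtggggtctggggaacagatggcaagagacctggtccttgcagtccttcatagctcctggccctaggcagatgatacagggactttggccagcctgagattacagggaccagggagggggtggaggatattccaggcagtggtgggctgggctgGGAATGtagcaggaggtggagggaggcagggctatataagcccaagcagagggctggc
Myh4: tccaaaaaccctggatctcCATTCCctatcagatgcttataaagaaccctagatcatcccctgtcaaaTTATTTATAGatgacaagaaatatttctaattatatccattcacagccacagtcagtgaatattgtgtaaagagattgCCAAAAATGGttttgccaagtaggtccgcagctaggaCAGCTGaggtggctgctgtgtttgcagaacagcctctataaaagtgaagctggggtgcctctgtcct
Myl1: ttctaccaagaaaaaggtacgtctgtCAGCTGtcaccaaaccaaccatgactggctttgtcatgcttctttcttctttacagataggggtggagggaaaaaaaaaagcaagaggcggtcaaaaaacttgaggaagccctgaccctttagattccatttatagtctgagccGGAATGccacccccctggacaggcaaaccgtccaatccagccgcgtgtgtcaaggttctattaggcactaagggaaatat

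The promoter of Myl3 held 2 MCAT matches and 1 CArG match, and that of Tnnc1 held 1 MCAT match. The promoter of Myh4 held 1 match to each of the 4 motifs. That of Myl1 held 1 MCAT and 1 E-box match.

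Slow sarcomere genes had the highest median of the 36 gene lists compared. All 12 genes of this list were measured: 11 rose in soleus without overlap between the muscles, and none fell. Over all genes 27.0% did not overlap. The list median was 4.91 against 0.00 for all genes. Myh7, the slow myosin heavy chain, stood at 13.72, 13.72, 13.70, 13.55 and 13.72 in soleus and at 3.80, 8.52, 8.33, 4.75 and 7.93 in quadriceps. Soleus was nearly constant over the mice, near the highest values on the arrays, while quadriceps was lowest in M2-2 and X2-2. The difference was 7.02 ± 0.60 (adjusted p = 1.15e-08, limma, n = 5), or 129.6-fold, and the quadriceps value of M2-2 lay under the array median.

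The other thin and thick filament genes of slow fibres rose as well. Tnni1, slow troponin I, measured 13.30, 13.20, 13.16, 12.68 and 13.04 in soleus and 4.57, 7.82, 7.65, 4.67 and 7.69 in quadriceps, a difference of 6.59 ± 0.53 (adjusted p = 4.84e-09, limma, n = 5). Again the quadriceps of M2-2 and X2-2 was about 3 units under that of the other mice, and no soleus value came near the quadriceps values. Tnnt1 and Tnnc1, slow troponin T and the troponin C of slow and cardiac muscle, rose by 6.51 ± 0.57 and 6.15 ± 0.59. Tpm3, the slow tropomyosin, rose by 5.87 ± 0.55, and its 5 probe sets ran from 0.80 to 6.00. Among the light chains, Myl2 rose by 5.35 ± 0.57 and Myl3 by 4.47 ± 0.53. Myom3, an M-band protein, rose by 4.41 ± 0.30, and Myoz2, a Z-disc protein that binds calcineurin, by 4.27 ± 0.42. Myh7b, a myosin heavy chain related to Myh7, rose by 2.26 ± 0.18, and Mybpc1, slow myosin-binding protein C, by 1.24 ± 0.13 from a quadriceps mean of 12.42 ± 0.31. Myl6b, a light chain also made outside muscle, had a difference of 0.14 ± 0.11 and did not pass (adjusted p = 0.339, limma, n = 5).

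**Figure D1:**
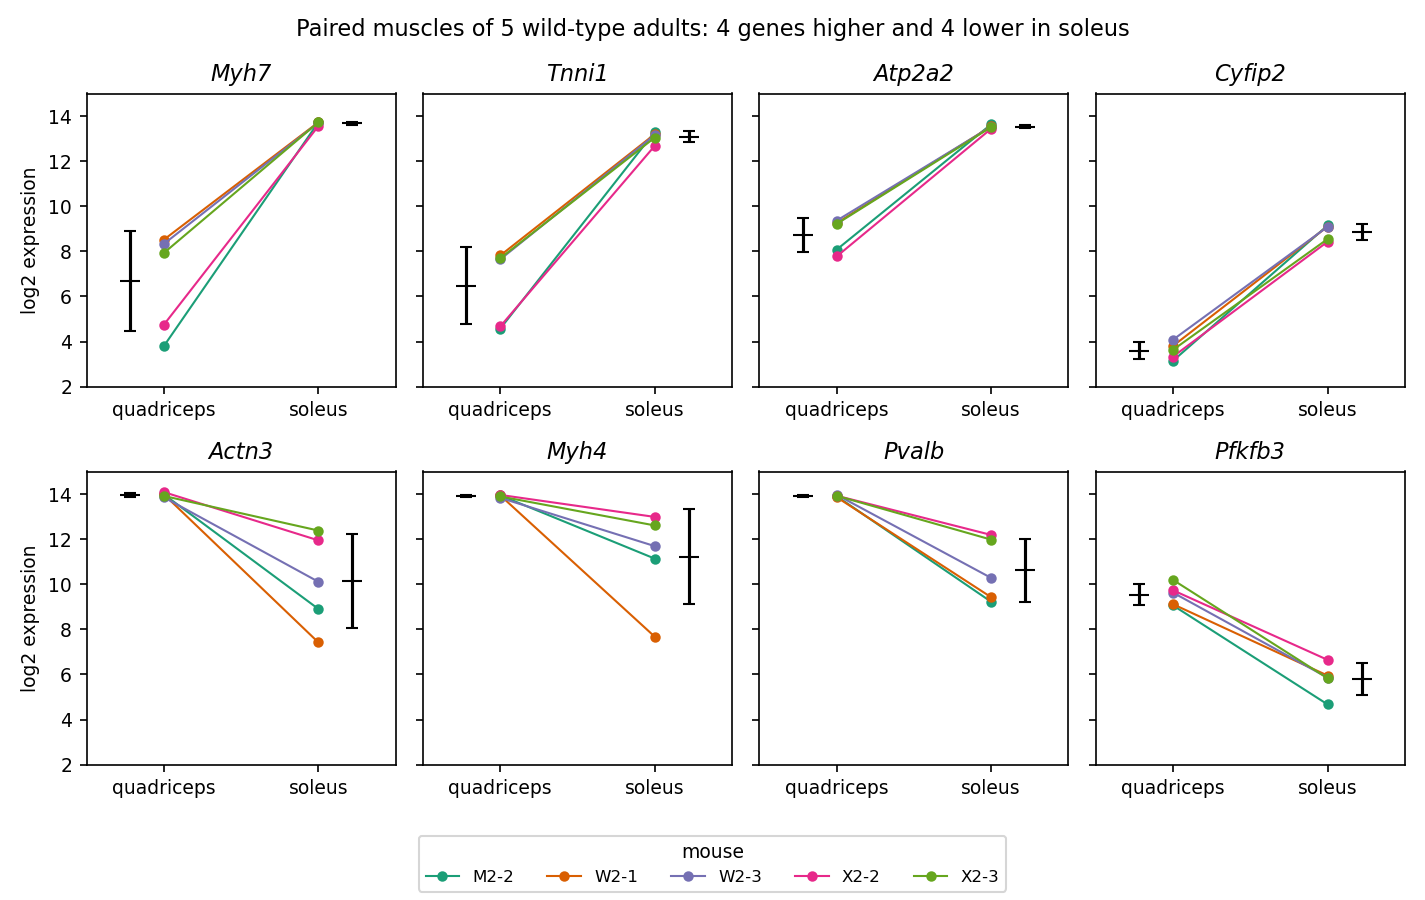
Log2 expression of 8 genes in quadriceps and soleus of 5 wild-type adults; each line joins the muscles of 1 mouse and the bars beside the points give the mean ± SD. Myh7 and Tnni1 vary over the mice in quadriceps, and Actn3, Myh4 and Pvalb vary in soleus. The differences of Cyfip2 (4.91 to 6.00) and Pfkfb3 (-4.39 to -3.08) vary less than that of Myh7.

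Fast sarcomere genes were lower in soleus, most of them by small amounts. Of 13 genes, 11 fell, 1 rose (Myh2) and 1 did not pass (Myh1), with a median of -0.36. Between muscles, 12 of the 13 did not overlap, against 27.0% of all genes. Actn3, the Z-disc actinin of fast glycolytic fibres, measured 8.91, 7.42, 10.11, 11.95 and 12.38 in soleus and 13.98, 13.99, 13.86, 14.09 and 13.92 in quadriceps. Here quadriceps was constant and soleus spread over about 5 units, lowest in W2-1 and highest in X2-3. The difference was -3.81 ± 0.65 (adjusted p = 8.22e-05, limma, n = 5). Mybpc2, fast myosin-binding protein C, fell by 3.41 ± 0.51, with the highest soleus values again in X2-2 (11.73) and X2-3 (11.62).

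Mylk2, the kinase that phosphorylates the regulatory light chain, fell by 2.08 ± 0.14, and Myoz1, a calcineurin-binding protein of fast fibres, by 1.95 ± 0.13. These 2 genes fell by similar amounts in all mice, Mylk2 by 1.78 to 2.26. The remaining fast members were Mylpf (-0.65 ± 0.08), Tpm1 (-0.36 ± 0.06), Myl1 (-0.31 ± 0.06), Tnni2 (-0.30 ± 0.06), Tnnt3 (-0.29 ± 0.06) and Tnnc2 (-0.18 ± 0.06), which did not pass without M2-2 (-0.16) or without W2-1 (-0.17). Mylpf is the fast regulatory light chain, and the last 3 are the fast troponins. For Tpm1, 1 of 4 probe sets differed in the other direction. The mean of 11 of the 13 fast genes in quadriceps was above 13, where only 67 of the 12245 genes lay, and the highest value on an array was 14.30 to 14.49. Log2 differences of genes so close to the top of the scale may be compressed, and this was not tested.

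The myosin heavy chains gave 5 higher (62.5%, 18.7% of all genes) and 2 lower members (25.0%, 21.9% of all genes) among the 8 measured. Myh13 had no probe set of its own here. Myh4, the heavy chain of the fastest (2B) fibres, measured 11.14, 7.68, 11.69, 12.99 and 12.61 in soleus and 13.83 to 13.96 in quadriceps. The difference was -2.69 ± 0.83 (adjusted p = 0.0133, limma, n = 5), and W2-1, with -6.26, was far from the other 4 mice (-0.98 to -2.80); without W2-1 it was -1.80 and did not pass (adjusted p = 0.102, limma). Myh2, the heavy chain of fast oxidative (2A) fibres, was higher in soleus (14.16 to 14.23) than in quadriceps (12.02 to 13.47), a difference of 1.49 ± 0.20 (adjusted p = 4.95e-06, limma, n = 5). Myh1, the 2X heavy chain, differed by 0.05 ± 0.11 (adjusted p = 0.731, limma, n = 5), with overlapping groups, 3 mice higher and 2 lower, and 3 probe sets that disagreed in sign. Myh3, the embryonic heavy chain, rose by 2.98 ± 0.37 and Myh6, the atrial heavy chain, by 2.44 ± 0.26. Both had quadriceps values at or under the array median, in 3 and 4 of the 5 mice. Myh8, the perinatal heavy chain, fell by 0.78 ± 0.13, with all 5 soleus values at or under the array median.

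Slow genes varied between mice in quadriceps and fast genes in soleus. The mean of the 12 slow genes was 12.26, 12.20, 12.13, 12.01 and 12.04 in soleus and 6.28, 8.68, 8.56, 6.02 and 8.49 in quadriceps. The mean of the 13 fast genes was 13.51 to 13.62 in quadriceps and 12.19, 11.75, 12.46, 12.91 and 12.89 in soleus. The slow difference was therefore largest in M2-2 (5.98) and X2-2 (5.99) and 3.52 to 3.57 in the other 3 mice. The fast difference was smallest in X2-2 (-0.61) and X2-3 (-0.68) and largest in W2-1 (-1.87). The quadriceps of W2-2, the mouse without a soleus array, had a slow mean of 5.67, below the 5 mice compared. In the other groups the slow mean of quadriceps also spread more than that of soleus among adult C3KO mice (6.53 to 9.32 over 7 quadriceps arrays, 12.16 to 12.20 over 6 soleus arrays) and wild-type young (7.75 to 8.83 and 12.01 to 12.10, 4 arrays each). In young C3KO mice both spread (6.85 to 8.54 and 10.54 to 12.18, 4 arrays each). In the wild-type adults most genes of the steadier muscle lay near the top of the scale. The mean was above 13 for 9 of the 12 slow genes in soleus and 11 of the 13 fast genes in quadriceps. The spread there may be compressed, and this was not tested.

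**Figure D2:**
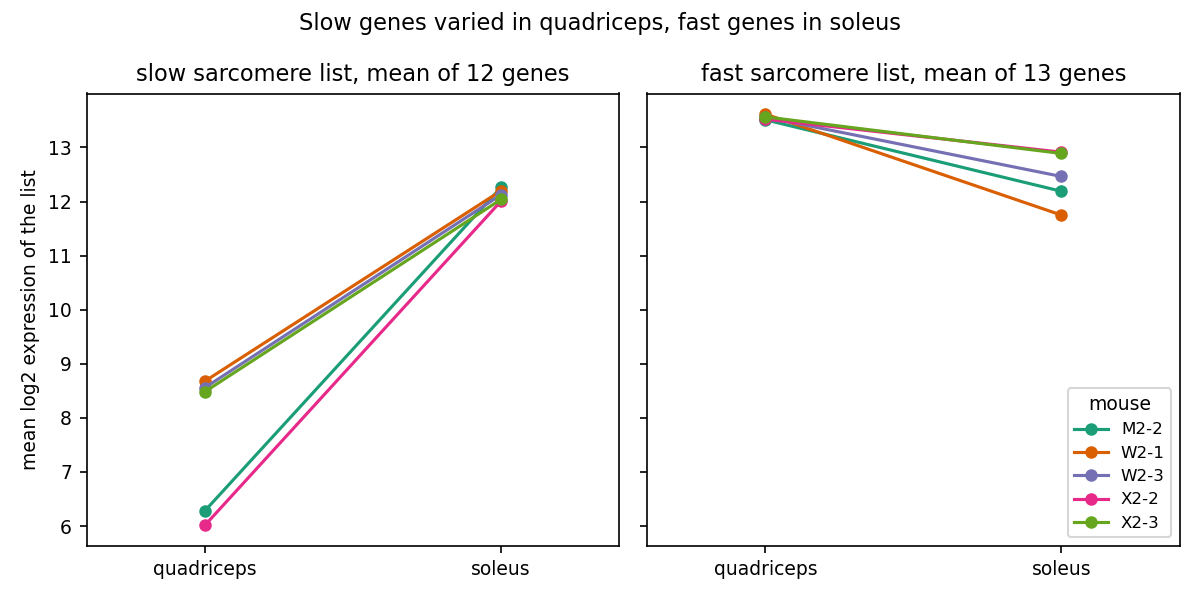
Mean log2 expression of the 12 slow and the 13 fast sarcomere genes in both muscles of each of the 5 mice. The slow mean lies between 12.01 and 12.26 in every soleus but between 6.02 and 8.68 in quadriceps, and the fast mean is steady in quadriceps and spreads from 11.75 to 12.91 in soleus.

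Outside the sarcomere lists, several of the largest rises varied less between mice than that of Myh7, whose differences ranged over 4.72 units. The ranges were 0.80 for Prune2, 1.05 for Lgi1, 1.09 for Cyfip2 and 1.34 for Tecrl, but 2.74 for Dusp18. Cyfip2, a regulator of actin assembly, measured 9.15, 9.10, 9.09, 8.43 and 8.55 in soleus and 3.15, 3.81, 4.08, 3.34 and 3.64 in quadriceps, a difference of 5.26 ± 0.35 (adjusted p = 3.76e-10, limma, n = 5). All 5 quadriceps values were at or under the array median, so the level there may be background and the size of the difference is uncertain. The same held for Tecrl, a gene of the endoplasmic reticulum linked to cardiac arrhythmia, with 7.23 to 8.93 in soleus, 2.67 to 3.73 in quadriceps and a difference of 5.08 ± 0.25. Lgi1, a secreted protein known from epilepsy, rose by 4.49 ± 0.31, with 4 of 5 quadriceps values at or under the array median. Prune2, known from the nervous system, rose by 4.24 ± 0.45, between 3.95 and 4.75 in each mouse, but its 4 probe sets ran from 0.47 to 4.24. Dusp18, a phosphatase, rose by 4.42 ± 0.43, with 6.36 in M2-2 and 3.62 to 4.27 in the other mice. Its 2 probe sets gave 1.83 and 4.42.

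Among the largest falls, Tspan8, a tetraspanin of the cell surface, measured 3.76, 3.90, 4.35, 6.78 and 4.59 in soleus and 9.55 to 10.33 in quadriceps, a difference of -5.29 ± 0.37 (adjusted p = 8.32e-10, limma, n = 5). Of the 5 soleus values 3 were at or under the array median, so the size is uncertain, and the 4 probe sets ran from -5.29 to -0.77. Soleus of X2-2 was more than 2 units above the other soleus samples but still below all quadriceps samples. Mybph, a relative of myosin-binding protein C, fell by 5.02 ± 0.31 and Dkk3, a secreted protein of the Dickkopf family, by 4.69 ± 0.23, with soleus at or under the array median in 3 and 4 of 5 mice. Pla2g7, which hydrolyses platelet-activating factor, fell by 4.65 ± 0.19, with -5.10 to -3.66 in single mice. Mss51, a mitochondrial protein of fast muscle, fell by 3.94 ± 0.71, with soleus at 4.25, 4.71, 6.56, 9.67 and 8.96. The soleus of X2-2 and X2-3 stood highest, as it did for Actn3. Further falls were those of Fgfbp1 (-3.72 ± 0.26), which carries fibroblast growth factors, Gdap1 (-3.68 ± 0.28), of the mitochondrial outer membrane, Tlcd4 (-3.66 ± 0.39), Smox (-3.61 ± 0.22), which oxidises spermine, and Aurka (-3.44 ± 0.22), a mitotic kinase. Fgfbp1 and Aurka were at or under the array median in 4 and 2 of the 5 soleus samples. The 4 probe sets of Gdap1 ran from -3.96 to -0.46, and the 2 of Tlcd4 gave -3.66 and -0.62.

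Calcium handling split between the pumps, stores and buffers of the fibre types. Of 26 members measured, 5 rose (19.2%, 18.7% of all genes) and 13 fell (50.0%, 21.9% of all genes), with a median of -0.26. The share that rose was near that of all genes. Atp2a2, the pump of slow and cardiac muscle, measured 13.63, 13.54, 13.53, 13.44 and 13.51 in soleus and 8.08, 9.25, 9.36, 7.78 and 9.22 in quadriceps. The groups were far apart, and M2-2 and X2-2 were again lowest in quadriceps. The difference was 4.79 ± 0.29 (adjusted p = 1.4e-10, limma, n = 5). Its inhibitors Sln (3.68 ± 0.37) and Pln (3.61 ± 0.36) rose too, Sln by 6.21 in X2-2 and by 2.19 to 3.51 in the others. Casq2, the calcium buffer of the cardiac and slow reticulum, rose by 3.27 ± 0.22, and Stim1, the sensor of store depletion, by 0.47 ± 0.17. Stim1 did not pass without M2-2 (0.33), W2-3 (0.49) or X2-3 (0.37).

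On the fast side, Pvalb, the cytosolic calcium buffer parvalbumin, measured 9.22, 9.43, 10.28, 12.19 and 11.98 in soleus and 13.86 to 13.97 in quadriceps. Soleus of X2-2 and X2-3 was again highest, as for Actn3, and the difference was -3.30 ± 0.47 (adjusted p = 9.06e-06, limma, n = 5). Cacng1, a subunit of the voltage sensor, fell by 1.76 ± 0.11, Camk2a, a calcium-dependent kinase, by 1.59 ± 0.17 (5 of 6 probe sets), and Casq1, the fast calsequestrin, by 1.26 ± 0.09. The junctophilins that hold the triad together fell as well, Jph2 by 1.24 ± 0.12 and Jph1 by 1.02 ± 0.12. Atp2a1, the fast pump, fell by only 0.41 ± 0.08 from a quadriceps mean of 13.94 ± 0.04.

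Regulators of fibre type followed the same division in part. Of 30 genes listed for calcineurin signalling and the slow programme, 17 rose (56.7%, 18.7% of all genes) and 6 fell, with a median of 0.34. The share that fell was near that of all genes (21.9%). Esrrg, an oestrogen-related receptor of oxidative muscle, rose by 2.98 ± 0.28 and Ppara, a receptor that controls fat oxidation, by 1.99 ± 0.24. The calcineurin targets and inhibitors Rcan1 (1.79 ± 0.22) and Rcan2 (1.60 ± 0.12), Lmcd1 (1.89 ± 0.22), the cofactor Vgll2 (1.52 ± 0.17), and the coactivators Ppargc1b (1.06 ± 0.12) and Ppargc1a (0.83 ± 0.23) also rose. Ppargc1a was 0.41 and did not pass without M2-2 (adjusted p = 0.0615, limma). Those that fell included the calcineurin subunits themselves, Ppp3cb (-1.02 ± 0.09), Ppp3r1 (-1.28 to -0.81 in single mice) and Ppp3ca (-0.88 ± 0.10). The others were Myoz3 (-0.94 ± 0.14), Nfatc3 (-0.85 ± 0.10) and Mef2a (-0.51 ± 0.09). Nfatc1, the calcineurin target best known in slow fibres, had a difference of -0.10 ± 0.10 (adjusted p = 0.483, limma, n = 5), but 3 of its 4 probe sets had a positive sign.

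Of 14 measured regulators of the fast programme, 8 fell (57.1%, 21.9% of all genes) and none rose, with a median of -0.70. Maf, a transcription factor that activates Myh4, fell by 2.99 ± 0.22, with -4.01 to -2.32 in single mice. Deptor, an inhibitor of mTOR, fell by 1.73 ± 0.21, Myod1 by 1.45 ± 0.21, and Sox6, a repressor of slow genes, by 1.21 ± 0.10. Smarcd3 (-0.84 ± 0.10), Tbx15 (-0.82 ± 0.10), Eya1 (-0.77 ± 0.09) and Nr4a1 (-0.64 ± 0.18) also fell. The 6 that did not pass included Myog (0.26 ± 0.16), Myf6 (-0.30 ± 0.14) and Bhlhe41 (-0.17 ± 0.16).

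**Figure D3:**
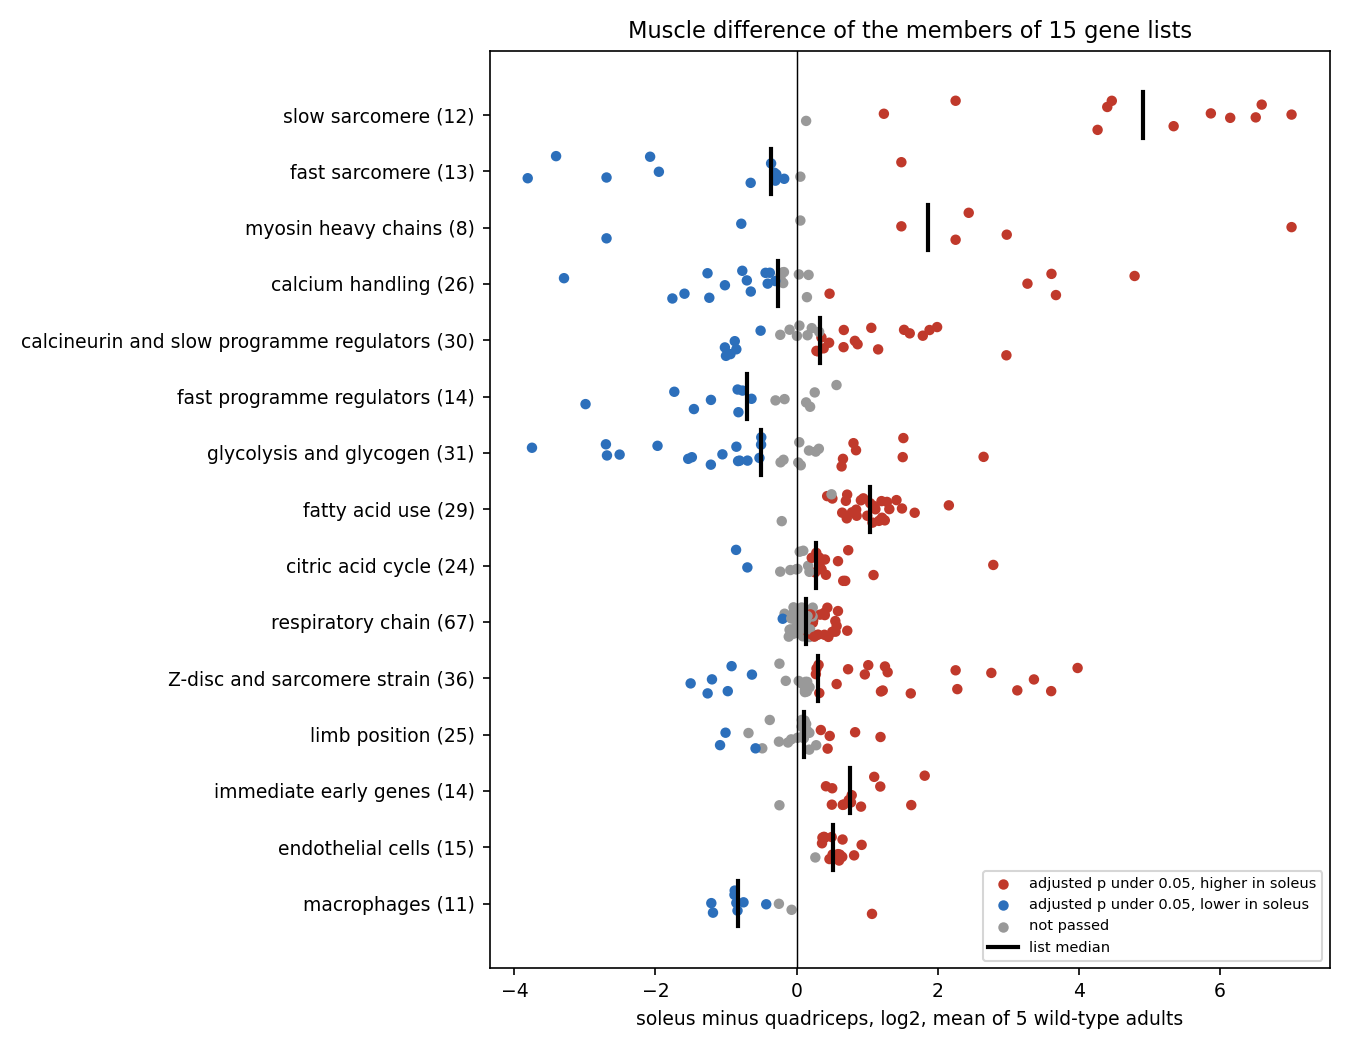
Soleus minus quadriceps (log2, mean of 5 mice) of each measured member of 15 gene lists, with the number of members in brackets, the list median as a black bar and the adjusted p of limma as colour. The slow sarcomere list has a median of 4.91 and the fatty acid list of 1.05, and the respiratory chain lies close to 0 with a median of 0.14.

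Genes of fat use were higher in soleus almost throughout. Of 29 measured genes of fatty acid uptake and oxidation, 27 rose (93.1%, 18.7% of all genes), none fell, and the median was 1.05. Plin5, which coats lipid droplets next to mitochondria, rose by 2.16 ± 0.20, Acot2 by 1.67 ± 0.23, Acaa2 by 1.49 ± 0.15 and the fatty acid transporter Cd36 by 1.42 ± 0.15. Pdk4, which shuts pyruvate out of the citric acid cycle, rose by 1.28 ± 0.18 and Lpl, lipoprotein lipase, by 1.22 ± 0.12. Ucp3 (-0.21 ± 0.22) and Plin2 (0.50 ± 0.20) did not pass.

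Sugar use went mainly the other way. Of 31 measured genes of glycolysis and glycogen, 16 fell (51.6%, 21.9% of all genes) and 7 rose (22.6%, 18.7% of all genes), with a median of -0.50. Pfkfb3, which makes the activator of phosphofructokinase, measured 4.67, 5.95, 5.86, 6.65 and 5.83 in soleus and 9.06, 9.11, 9.63, 9.73 and 10.19 in quadriceps. The groups were more than 2 units apart, and the difference was -3.75 ± 0.24 (adjusted p = 2.47e-10, limma, n = 5). Slc16a3, the lactate exporter of fast fibres, fell by 2.70 ± 0.20, as did Gpd1 (-2.69 ± 0.25), and the phosphorylase kinase subunits Phkg1, Phka1 and Phkb by 2.51 ± 0.14, 1.97 ± 0.13 and 1.48 ± 0.09. Ldha fell by 1.21 ± 0.09 and Pygm, muscle phosphorylase, by 1.05 ± 0.11.

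The share of glycolysis and glycogen genes that rose was near that of all genes. Among the 7 are genes of lactate uptake and use and of glycogen building. Ldhb, the lactate dehydrogenase of oxidative tissue, measured 12.36 to 12.69 in soleus and 8.82 to 10.73 in quadriceps, a difference of 2.65 ± 0.26. Slc16a1, the lactate importer, rose by 1.51 ± 0.20, the branching enzyme Gbe1 by 1.51 ± 0.17, glycogen synthase Gys1 by 0.84 ± 0.14 and hexokinase 2, Hk2, by 0.81 ± 0.13. Slc2a1 and Pgam1 were the other two.

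The mitochondrial lists moved less. In the citric acid cycle 14 of 24 genes rose (58.3%, 18.7% of all genes), with a median of 0.27. In the same list 2 fell (8.33%, 21.9% of all genes), Pdp1 (-0.86 ± 0.17) and Pcx (-0.70 ± 0.22). Idh2, which makes NADPH in mitochondria, stood apart with 2.79 ± 0.21. In the respiratory chain 22 of 67 subunits rose (32.8%, 18.7% of all genes), 1 fell (Ndufc1, -0.20 ± 0.06), and 44 did not pass. The largest rise there was that of Ndufb3 (0.72 ± 0.12), and the median was 0.14. With the 5 mice fitted alone 13 rose (19.4%, 16.6% of all genes) and with quantile normalization 16 (23.9% and 21.2%), so the share came close to that of all genes. Centring gave 15 (22.4% and 16.9%), and ignoring the pairing of the muscles, with W2-2 and U2-3 added, gave 31 (46.3% and 19.2%). Ndufc1 did not pass without M2-2 (-0.18), W2-3 (-0.18) or X2-3 (-0.17).

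Phosphagen, AMP and oxygen genes were mixed: 6 of 14 rose (42.9%, 18.7% of all genes) and 4 fell (28.6%, 21.9% of all genes). Ampd3, the AMP deaminase of slow fibres and red cells, rose by 2.16 ± 0.28 while Ampd1, that of fast fibres, fell by 1.32 ± 0.08. Myoglobin, Mb, rose by 0.65 ± 0.11 and Car2 by 1.65 ± 0.21. Among 19 genes of insulin and AMPK signalling, 6 rose (31.6%) and 6 fell (31.6%), and only 3 rose without M2-2. Prkag3, the regulatory subunit of AMPK typical of glycolytic fibres, measured 5.80, 6.42, 6.65, 8.61 and 7.44 in soleus and 10.29 to 11.12 in quadriceps, a difference of -3.73 ± 0.26 (adjusted p = 5.86e-10, limma, n = 5). Its partner Prkab2 fell by 2.17 ± 0.14, and Tbc1d4, which controls the glucose transporter, rose by 0.95 ± 0.14.

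Membrane and synapse genes moved in both directions. Of 12 genes of membrane excitability, 2 rose (16.7%, 18.7% of all genes) and 5 fell (41.7%, 21.9% of all genes). The sodium pump subunit Atp1b1 rose by 1.82 ± 0.22 while Atp1b2 fell by 2.97 ± 0.25, and the potassium channel Kcnc4 fell by 2.20 ± 0.21. Of 15 genes of the neuromuscular junction, 6 rose, a larger share than the 18.7% of all genes. The 3 that fell were a share near that of all genes (21.9%). Chrna1, a subunit of the acetylcholine receptor, rose by 1.61 to 1.94 in each mouse (1.76 ± 0.18), while Chrne, the adult subunit, fell by 0.79 ± 0.14 and Ache, which breaks down acetylcholine, by 0.77 ± 0.20.

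Z-disc and strain genes rose more often than they fell, 20 (55.6%, 18.7% of all genes) against 6 (16.7%, 21.9% of all genes) of 36. Csrp3, a Z-disc protein of slow and cardiac muscle, rose by 3.98 ± 0.45 and Ankrd2, a stretch-responsive protein, by 3.61 ± 0.42. Pdlim1 (3.37 ± 0.21), Lmod2 (3.13 ± 0.29), which lengthens thin filaments, Hspb7 (2.76 ± 0.27) and Actn2 (2.28 ± 0.21), the actinin of all fibres, followed. Ky (-1.50 ± 0.20), Pdlim7 (-1.26 ± 0.10), Tmod1 (-1.20 ± 0.10), Tmod4 (-0.97 ± 0.09), Pdlim3 (-0.92 ± 0.10) and Myom2 (-0.63 ± 0.12) fell.

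Capn3, the muscle protease missing in C3KO mice, did not pass in this comparison. It measured 10.35, 10.45, 10.34, 10.22 and 10.17 in soleus and 10.18, 10.11, 10.30, 10.11 and 10.22 in quadriceps. The groups overlapped, and the difference was 0.12 ± 0.13 (adjusted p = 0.496, limma, n = 5), with 4 of 5 mice higher in soleus. The spread in the fit comes from all 19 mice, including C3KO mice, where this probe set lay between 3.67 and 4.93. A further Capn3 probe set had a median of 10.21 in soleus (9.75 to 10.37, 5 arrays). In quadriceps its median was 9.87 (9.63 to 10.14, 6 arrays, W2-2 included). Among the other 8 members of the calpain system, 4 fell and none rose: Capn6 (-0.56 ± 0.11), Capn1 (-0.49 ± 0.16), Capn7 (-0.35 ± 0.10) and Cast, the inhibitor calpastatin (-0.34 ± 0.10). With Capn3 counted, 44.4% of the 9 members fell, against 21.9% of all genes. Capn1 did not pass without W2-3 (-0.44) or X2-2 (-0.37), nor Capn7 without M2-2 (-0.24).

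Smaller lists held single genes of large size. Of 18 growth and secreted factors, 8 rose (44.4%, 18.7% of all genes) and 3 fell (16.7%, 21.9% of all genes). The rises were led by Fgf1 (2.26 ± 0.15) and Fndc5 (1.77 ± 0.18), the precursor of irisin, and the falls by Igfbp5 (-1.60 ± 0.20). Without M2-2, 5 rose and 2 fell. Of 16 atrophy and autophagy genes, 5 rose (31.2%) and 3 fell (18.8%). The ubiquitin ligases went different ways, Trim63 falling by 0.72 ± 0.10 and Fbxo32 rising by 0.85 ± 0.15, although 1 of 3 probe sets of Fbxo32 was lower. The probe set of highest mean differs by setting for Fbxo32: the one used here gave 0.71 to 0.93 with each mouse left out, while another, chosen by the rule without M2-2, W2-1, W2-3 or X2-2, gave 0.05 to 0.35 and did not pass. Gabarapl1, of the autophagosome, rose by 1.42 ± 0.15. Of 15 clock genes 1 rose and 6 fell, a larger share than the 21.9% of all genes, with Rora at -1.33 ± 0.11. Where the pairing was ignored, 3 clock genes fell. Of 14 genes of interferon and MHC class I none rose and 2 fell (14.3%, 21.9% of all genes).

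Of 43 genes that mark position along the limb, 25 were measured, 13 did not pass the filter on low values and 5 had no probe set of their own. Of the 25 measured, 5 rose (20%, 18.7% of all genes) and 3 fell (12.0%, 21.9% of all genes), shares near or below those of all genes. Without H4-2, a young C3KO mouse that enters only through the shared spread, 6 rose and 7 fell. With the 5 mice fitted alone only 19 were measured, of which 3 rose and 6 fell, while 2374 of all 11708 genes fell. The share that fell thus depended on the setting. Tbx3 rose by 1.19 ± 0.17 and Tbx4, a hindlimb factor, by 0.83 ± 0.16, from quadriceps values all at or under the array median. Tbx18 (0.47 ± 0.17), Pitx3 (0.44 ± 0.11) and Hoxa11 (0.34 ± 0.09) also rose. Hoxc8 fell by 1.08 ± 0.26, Shox2 by 1.01 ± 0.39 and Hoxc6 by 0.58 ± 0.14. Shox2 did not pass without any 1 of the 5 mice (-0.85 to -1.12), nor Tbx18 without M2-2 (0.50), W2-1 (0.41), W2-3 (0.46) or X2-2 (0.34). Hoxc10 was lower in soleus (8.50 to 8.87) than in quadriceps (9.31 to 9.54) in all 5 mice. With -0.68 ± 0.50 it did not pass in the fit (adjusted p = 0.297, limma, n = 5), whose spread comes from all 19 mice. The 17 not passing also include Hoxa9 (-0.49 ± 0.44), Hoxa10 (-0.38 ± 0.21) and Pitx1 (0.14 ± 0.11).

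Of the 14 immediate early genes listed and measured, 13 rose (92.9%, 18.7% of all genes) and none fell, with a median of 0.76. Between muscles 4 of the 14 did not overlap, against 27.0% of all genes. Nr4a1, which fell, was counted with the fast programme and is not in this list. Where the pairing of the muscles was ignored and W2-2 and U2-3 were added, 7 of 14 were higher. Atf3 measured 9.48, 7.60, 7.72, 6.40 and 6.20 in soleus and 5.72, 6.15, 6.16, 5.19 and 5.10 in quadriceps, a difference of 1.82 ± 0.30 (adjusted p = 5.5e-05, limma, n = 5). M2-2 was highest in soleus. Egr1 rose by 1.63 ± 0.23 and Fos by 1.10 ± 0.29, but the levels of both overlapped between muscles over the 5 mice. Of 16 heat shock genes 5 rose (31.2%, 18.7% of all genes) and 3 fell (18.8%, 21.9% of all genes), and 8 rose with quantile normalization. Hspa1b rose by 2.56 ± 0.31 and Hspa1a by 2.34 ± 0.32.

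Markers of other cell types moved with the muscle as well. Endothelial markers rose in 14 of 15 (93.3%, 18.7% of all genes), with a median of 0.51, but only 7 passed without M2-2 and 5 without W2-3. Between muscles 1 of the 15 did not overlap, against 27.0% of all genes. Kdr, the main receptor for vascular endothelial growth factor, rose by 0.92 ± 0.19, and Robo4 (0.27 ± 0.12) alone did not pass. The mean of the 15 ran from 7.14 to 7.63 in soleus and from 6.48 to 7.18 in quadriceps. All 8 measured markers of pericytes and smooth muscle rose, led by Cspg4 (0.91 ± 0.18) and Acta2 (0.82 ± 0.17).

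Macrophage markers went down. Of 11, 8 fell (72.7%, 21.9% of all genes), with a median of -0.84. Lgmn, a lysosomal protease, rose by 1.07 ± 0.13. Cd163 (-1.21 ± 0.18) and Mrc1 (-1.18 ± 0.22), receptors of resident macrophages, fell in every mouse. The list mean ran from 6.06 to 6.62 in soleus and from 6.69 to 7.29 in quadriceps. Fibroblast and matrix markers fell in 5 of 13 (38.5%, 21.9% of all genes) with none higher. Without X2-2 8 fell, and with the 5 mice fitted alone 10. Among the 5 were Dpt (-0.88 ± 0.22), Gsn (-0.79 ± 0.11) and Pdgfra (-0.71 ± 0.16), while Col1a1 (-0.35 ± 0.23) did not pass.

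The 8 adipocyte markers split 4 against 4 (50.0% each way, against 18.7% higher and 21.9% lower over all genes). Adipoq (-1.08 ± 0.37), Lep (-1.13 ± 0.39), Retn (-0.92 ± 0.24) and Cidec (-1.29 ± 0.37) fell. Cidea (3.57 ± 0.29), Plin4 (0.79 ± 0.10), Car3 (0.43 ± 0.07) and Fabp4 (0.36 ± 0.09) rose, and of these Car3 also stands in the oxygen list. Adipoq did not pass without M2-2 (-0.94) or X2-3 (-0.99), nor Lep without W2-1 (-0.99), W2-3 (-0.97) or X2-3 (-1.14). Ighm, the heavy chain of immunoglobulin M, fell by 4.11 ± 0.45. Its values were 7.17, 5.50, 5.62, 7.56 and 5.75 in soleus and 10.10 to 10.85 in quadriceps, and 5 of 6 probe sets were lower. Cd3e, the only other lymphocyte marker measured, differed by 0.00 ± 0.12, and 7 further lymphocyte markers did not pass the filter on low values or had no probe set of their own.

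Of the other marker lists, Schwann cells had 3 of 7 higher (Mbp, 0.87 ± 0.27), satellite cells 1 higher (Sdc4, 1.39 ± 0.27) and 1 lower (Chodl, -0.44 ± 0.15) of 6, and tendon 2 higher (Cilp and Tnmd) and 1 lower (Kera, -1.74 ± 0.21) of 9. The shares higher and lower were 42.9% and 0.0% for Schwann cells, 16.7% and 16.7% for satellite cells and 22.2% and 11.1% for tendon. Over all genes they were 18.7% and 21.9%. Without X2-3 only 1 of the 7 Schwann cell markers rose, since Mbp (0.59) and Ncmap (0.32) did not pass. Mbp did not pass without W2-3 either (0.76), nor Chodl without X2-3 (-0.31), Cilp without W2-1 (0.70) or X2-2 (0.55), and Tnmd without M2-2 (0.57), W2-1 (0.60) or W2-3 (0.50). Muscle spindle markers gave 3 higher (50.0%) and 1 lower (16.7%) of 6, with Myh6 and Myh7b among the 3. The other two called there did not pass without M2-2 (Etv4, 0.31, and Gfra1, -0.61) or X2-3 (0.25 and -0.57), nor Etv4 without W2-1 (0.28) or Gfra1 without W2-3 (-0.59). None of 1 red blood cell, 3 skin and 4 liver markers passed (limma), and none of these 8 had an unadjusted p under 0.05 other than Alas2 (0.47 ± 0.21). Alas2, the red blood cell marker, passed as higher in soleus with the 5 mice fitted alone, without H4-2 and without X2-3. It also passed with quantile normalization and where the pairing was ignored. The part of these cell types in the differences of other genes was not tested.

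**Figure D4:**
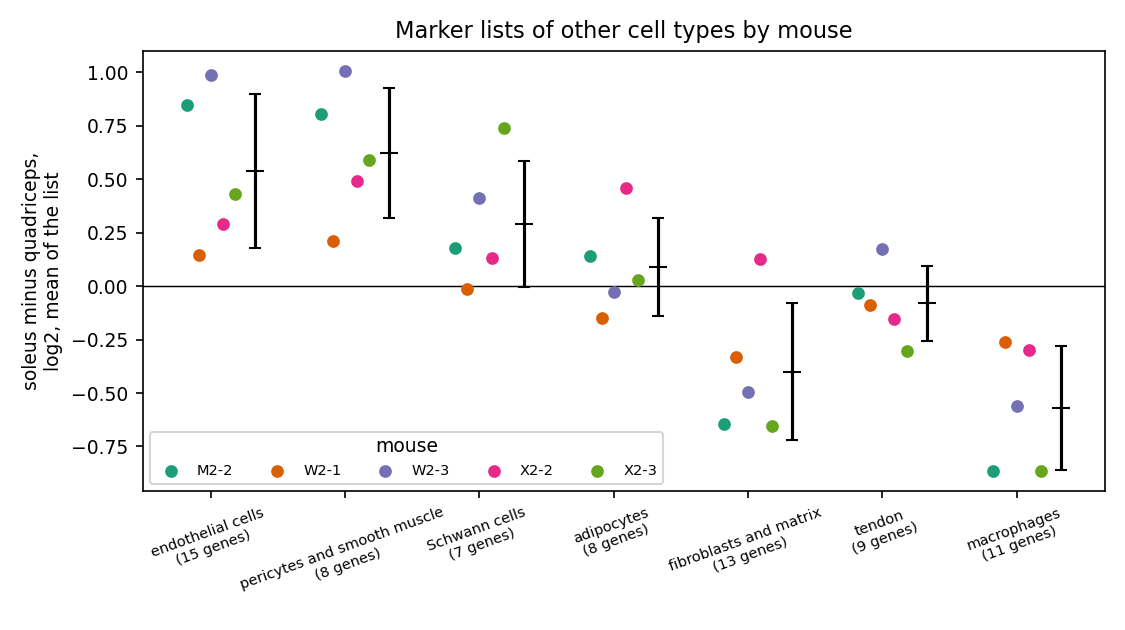
Soleus minus quadriceps (log2) of the mean of 7 marker lists in each of the 5 mice, with the mean ± SD beside the points. The endothelial list is higher in soleus in all 5 mice (0.15 to 0.99) and the macrophage list lower in all 5 (-0.26 to -0.86).

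The same muscle comparison was then set beside that in the other mice, whose arrays are separate but share 1 estimate of the spread in the fit. In the 4 wild-type young, 4057 of 12245 genes passed (33.1%). Of the 4972 genes that passed in adults, 4860 (97.7%) had the same sign in the young, against 81.7% of all genes. The genes that passed with the same sign in both numbered 3360, which is 67.6% of the adult and 82.8% of the young genes. In adult C3KO mice 5734 genes passed (46.8%), and 4132 were shared, 83.1% of the wild-type and 72.1% of the C3KO genes. In young C3KO mice 4442 passed (36.3%), and 3511 were shared, 70.6% and 79.0%.

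**Figure D5:**
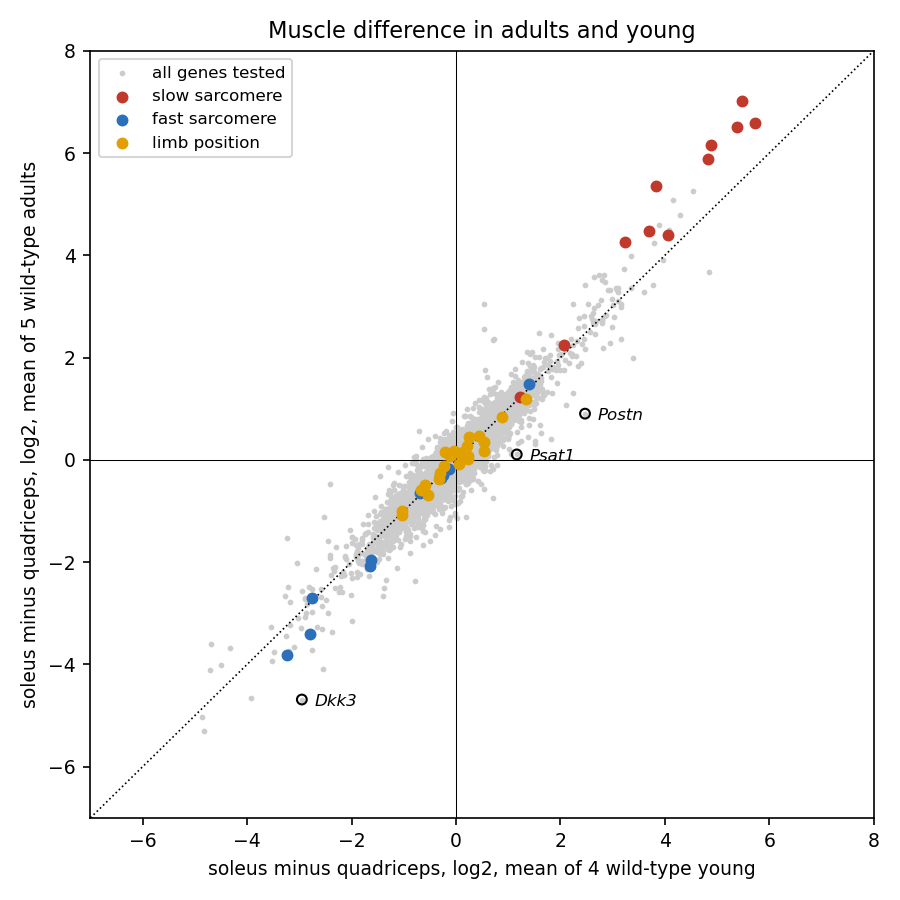
Soleus minus quadriceps (log2) in 4 wild-type young (x) and 5 wild-type adults (y) for 12245 genes, with 3 lists in colour, equality as a dotted line and 3 genes circled. Postn, Psat1 and Dkk3 lie off the line without passing the test of the difference.

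A muscle difference that itself differs between groups was tested for each gene. Between wild-type adults and wild-type young, 0 of 12245 genes passed in limma (0.0%), with 691 at an unadjusted p under 0.05. The smallest adjusted p was 0.0709, for Postn, periostin of the matrix. Its muscle difference was 0.81, 0.59, 0.80, 1.11 and 1.21 in the adults and 2.12 to 2.70 in the young, and the adult minus young value was -1.57 ± 0.26. The ranges did not overlap, and next came Psat1 of serine synthesis (-1.06 ± 0.18), Dnajb1, a heat shock cochaperone (0.90 ± 0.17), Dkk3 (-1.73 ± 0.34) and Actc1, cardiac actin (1.95 ± 0.38). For Myh7 the adult minus young value was 1.53 ± 0.90, and for Actn3 it was -0.57 ± 0.98.

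Between wild-type and C3KO adults, 0 genes passed in limma (0.0%), with 770 at an unadjusted p under 0.05 and a smallest adjusted p of 0.501. The genes of smallest p were Dennd2c (-0.90 ± 0.18), Nmb (1.06 ± 0.22), Efl1, Cpeb2 and Acer2, given as wild-type minus C3KO. Dennd2c fell in soleus by 1.29 to 1.82 in the 5 wild-type adults, and by 0.11 to 1.10 in the 6 C3KO adults. Nmb, neuromedin B, differed between muscles by -0.05 ± 0.16 in the wild type and by -1.79 to -0.68 in the 6 C3KO adults.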

How the data were processed

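The authors deposited 1 table of log2 expression values for 42 Affymetrix arrays and 45101 probe sets; the submitters' processing notes name MAS5 and RMA, and no genome build is named in the labels. The deposited log2 values were used as they stand, with no further normalization. Array number limits the precision.

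Probe sets of 1 gene symbol (34945, of which 34741 matched a RefSeq gene ID, 99.4%) named 18193 genes. The 932 probe sets of more than 1 symbol and the 9160 with none stayed unnamed, and each gene was represented by its probe set of highest mean. A probe set entered when it lay above its array's median on at least 4 arrays, which left 12245 genes. Each mouse's soleus minus quadriceps value was fitted with limma 3.58.1 in R 4.3.3, with 4 groups of 19 mice sharing 1 spread and Benjamini-Hochberg adjustment at 0.05. The fit was tested on simulated data. The muscles are paired because both came from the same animal per the labels, and mice are the replicates. A value at or under the array median may be background, since no detection calls were used.

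Genes named were the 15 largest rises and 15 largest falls that passed and moved the same way in all 5 mice (unnamed clones left out) and Capn3. All members of the slow and fast sarcomere, myosin, limb position, calpain and cell type lists were eligible. So were up to 8 members of smallest p of the other lists with those passing against the list's median, and the 5 of smallest p in each test between groups. Members and lists were chosen with earlier results of these data known. Alternatives covered the normalization, the filter, the probe sets averaged, the pairing, covariates and each mouse left out.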

Additional observations from a re-analysis of the deposited data

Results flagged for a closer look

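Among 75 sets of 5 values checked for a sample far from the others, 6 passed Dixon's 95% critical value of 0.71, and chance marks about 1 in 20 sets. The soleus minus quadriceps value of Dusp18 was 6.36 in M2-2 and 3.62 to 4.27 in the other 4 mice. That of Hoxa9 was -1.11 in M2-2 against -0.45 to -0.21. Hoxb9 was 0.80 in X2-3 against -0.19 to 0.02, and Tecrl was 4.14 in X2-3 against 5.11 to 5.47. Tbx3 was 1.65 in W2-3 against 1.04 to 1.15. The actin 3′ minus 5′ value of the soleus of X2-2 was 0.497, against 0.123 to 0.197 in the other soleus samples.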

How the results depend on the processing

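The count of 4972 genes stayed within 1.5 times under all 15 alternatives run, from 4081 without M2-2 to 5283 without the young C3KO mouse H4-2. Leaving out each wild-type adult in turn gave 4081 to 4831 genes, and 3437 (69.1%) of the 4972 passed without each of the 5 mice. With the replicate block of the mouse dropped, so that the pairing was ignored, 5056 genes passed, 4650 of them among the 4972. Quantile normalization gave 5107 (2596 higher) and centring on array medians 4734 (2071 higher). Of the 584 genes that stand in a list or were ranked for naming, 363 passed, and 270 of these passed under every alternative. Leaving out 1 wild-type adult gave 12 to 18 genes another probe set of highest mean, and fitting the 5 alone 134. The sign turned for Fbxo32 without the pairing (-0.0086, adjusted p = 0.986, limma), where another probe set has the highest mean. It also turned for Nfatc1 with probe sets averaged (0.31, adjusted p = 0.0137, limma), and 1 of its 4 probe sets has the sign given in the report. Between wild-type adults and young, 2 genes passed without H4-2 (Postn, -1.57, adjusted p = 0.0153; Psat1, -1.06, adjusted p = 0.0194, limma). There 1 passed without the pairing (Dkk3, -1.77, adjusted p = 0.0231, limma) and 1 with the actin covariate (Postn, -1.67, adjusted p = 0.0152, limma). Between wild-type and C3KO adults 0 passed in limma under every alternative, with 770 at an unadjusted p under 0.05 in the fit reported. With 5 mice, the depth of the comparison is set by the number of arrays, and sizes of differences from values at or under the array median are uncertain. The averaged probe sets, quantile, centred, covariate and unpaired settings for the tests between groups were chosen after seeing the data.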

Other observations

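The heat shock gene Hspa1b was 3.34, 3.09, 1.91, 2.53 and 1.92 higher in soleus in the 5 wild-type adults and between -0.49 and 1.74 in the 4 young. The adult minus young value was 2.02 ± 0.47 and did not pass (adjusted p = 0.26, limma). Egr1 differed between muscles by 1.16 to 2.12 in the adults and by -0.49 to 1.26 in the young.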
